A study of Danio rerio with 4 samples.

Results

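The genes of the cytosolic HSP90 chaperone and its cochaperones were followed in zebrafish embryos that carry an inducible oncogenic RAS. Members were all array features whose zebrafish symbol in the deposited annotation was hsp90aa1.1, hsp90aa1.2, hsp90ab1, chordc1a, stip1, ahsa1b or cdc37, or an older synonym, together with features without a symbol whose human ortholog was HSP90AA1, HSP90AB1, STIP1, AHSA1, CHORDC1, CDC37, PTGES3 or FKBP4. The form of the endoplasmic reticulum, hsp90b1, was left out. This gave 16 of 37176 features, 4 by zebrafish symbol and 12 by human ortholog. No probe sequence was used here, so which of several related copies a feature binds cannot be told. A feature paired with a human name is called below by that name and its identifier.

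RNA came from whole embryos on single-colour (Cy3) arrays, 2 arrays of Tg(hsp70-hRASG12V) embryos, called transgenic here, and 2 arrays of wild-type embryos. The transgene is a mutant human HRAS behind the heat-inducible hsp70 promoter, and the study's design describes the transgenic embryos as heterogeneous. Both genotypes were kept at 28.5 °C, moved to 37 °C for 1 h at 24 hours post fertilisation and collected at 30 hours, each array from a pool of 50 embryos. The design text speaks of biological triplicates, and 2 arrays per genotype were analysed here. The level of the transgene itself was not analysed here. The titles tag the wild-type arrays ab and the transgenic arrays ras, and a difference in strain background or clutch cannot be told apart from the transgene. The wild-type embryos had been heat shocked as well, and no unshocked embryos are among the groups, so each difference below is between 2 shocked groups and says nothing of induction by heat. In whole embryos, fewer cells of a type and less RNA per cell cannot be told apart.

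HSP90 is an ATP-driven dimer that completes the folding of client proteins such as steroid receptors and many kinases. Cochaperones set its cycle: STIP1 (HOP) hands clients over from HSP70, CDC37 brings in kinases, AHSA1 speeds up the ATPase, PTGES3 (p23) holds the closed dimer, and FKBP4 serves steroid receptor complexes. The transcription factor HSF1 drives the inducible genes of the system after heat. In zebrafish the alpha genes hsp90aa1.1 and hsp90aa1.2 lie next to each other and respond to heat, and hsp90aa1.1 is needed in skeletal muscle for myosin assembly. The beta gene hsp90ab1 is the constitutive form.

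More member features fell than rose in the transgenic embryos. The members include 4 features with the human ortholog CHORDC1 and 3 with AHSA1. Of the 16 features, 9 fell, 0 rose and 7 did not pass an adjusted p of 0.05 (limma, Benjamini-Hochberg over all features), while over the whole array 17.6% of features passed, 7.28% downward and 10.3% upward. With each array shifted to a common median, 3316 features rose and 3630 fell, against 3830 and 2708 without that shift. Among features at least as bright as the dimmest member, 4.98% fell. At an unadjusted p of 0.05, 12 of the 16 passed, 11 downward and 1 upward, against 36.9% of all features in either direction. The median log2 fold change, transgenic over wild type, was -0.81 over the members and 0.01 over all features, and the members ranged from -1.53 to 0.53. Both transgenic arrays lay below both wild-type arrays for 12 members and above them for 2, and the groups overlapped for 2. Over all features these separations occurred in 33.1% downward and 34.4% upward. The largest falls were in 2 of the 4 CHORDC1 features, ZV700S00001630 and chordc1a, followed by ahsa1b, the FKBP4 feature and 1 AHSA1 feature, TC251930.

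**Figure D1:**
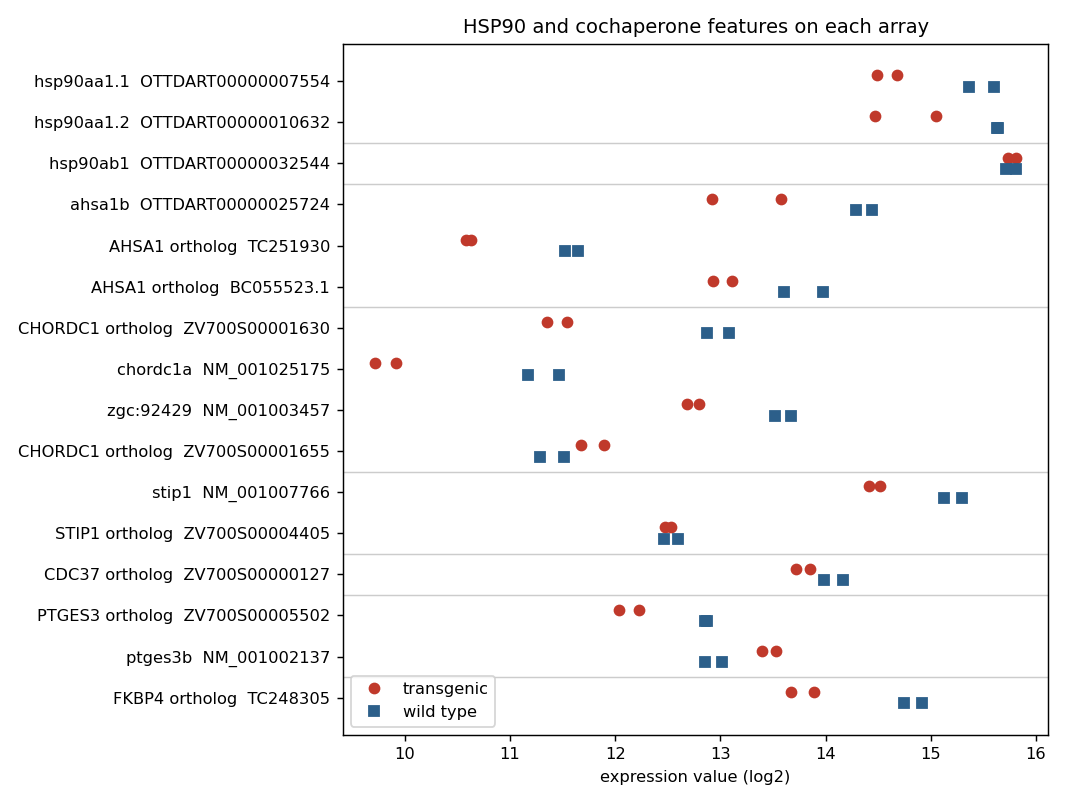
Expression values (log2, horizontal axis) of the 16 HSP90 and cochaperone features, a row each with gene or human ortholog name and feature identifier, for the 2 transgenic arrays (red circles) and the 2 wild-type arrays (blue squares). In 12 rows both circles lie left of both squares, and in the hsp90ab1 row they overlap between 15.71 and 15.81.

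The 2 alpha genes were both near the top of the array's range. The hsp90aa1.1 feature (OTTDART00000007554, named hsp90a in the file) had values of 14.48 and 14.67 (log2) on the transgenic arrays, against 15.36 and 15.60 on the wild-type arrays. The groups did not overlap, and hsp90aa1.1 fell by 0.90 ± 0.17 on the log2 scale (SE, n = 2 arrays per genotype, limma adjusted p = 0.0298), or 1.87-fold. The hsp90aa1.2 feature (OTTDART00000010632, hsp90a2 in the file) had 14.47 and 15.05 on the transgenic arrays, against 15.63 and 15.63 on the wild-type arrays. Its difference was close in size (-0.87 ± 0.23) but did not pass (limma adjusted p = 0.0611), with transgenic arrays 0.58 apart. It passed under 4 of 12 alternatives (adjusted p = 0.0138 to 0.287 over the 12). The 95% interval of the hsp90aa1.2 difference ran from -1.46 to -0.28. Since the 2 genes are close copies, part of each signal may come from the other, and how much was not tested.

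The beta gene hsp90ab1 (OTTDART00000032544) showed no such difference. It had values of 15.73 and 15.81 on the transgenic arrays, against 15.71 and 15.80 on the wild-type arrays. The groups overlapped, with a difference of 0.01 ± 0.14 (limma adjusted p = 0.956) whose sign turned to -0.08 after median centring, and to -0.03 without transgenic replicate 2 or wild-type replicate 1. The 95% interval of the hsp90ab1 difference ran from -0.35 to 0.38. Within arrays, the hsp90aa1.1 value minus the hsp90ab1 value was -1.24 and -1.14 on the transgenic arrays, against -0.35 and -0.20 on the wild-type arrays, a difference of -0.92. An exact two-sided permutation test over the 4 arrays gave p = 0.333, the smallest that 2 against 2 arrays allow. The same comparison for hsp90aa1.2 gave -0.89 (exact p = 0.333). For hsp90aa1.1 against hsp90aa1.2 it gave -0.03 (exact permutation p = 1). With 6 such pairs compared, chosen after their values were seen, the p of 0.333 became 0.4 after Benjamini-Hochberg adjustment.

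The 3 HSP90 features are among the brightest of the array, and only 17 features had a higher mean than hsp90ab1. Its highest value lay 0.23 below the highest value of any feature, and whether signal near that limit was compressed was not tested. Features this bright by their mean over all arrays differed little between genotypes. Among the 238 features at least as bright as hsp90aa1.1, the median size of the log2 difference was 0.10, against 0.36 over all features, and 2 fell and 2 rose. Within these 238, hsp90aa1.1 and hsp90aa1.2 had the most negative fold changes (ranks 1 and 2 from the lowest). The other feature that fell was ZV700S00002836, with the human ortholog SMARCA5 (-0.82 ± 0.15). This brightness limit, the hsp90aa1.1 mean of 15.03 over both genotypes, was chosen after the values were seen. A feature that falls far drops below such a limit through its transgenic values. This left out hsp70, with 15.05 and 15.54 on the wild-type arrays and a difference of -2.69. It also left out hspa4a, with 15.16 and 15.30 on the wild-type arrays and a difference of -1.39. The small differences and the ranks thus depend in part on the limit, and cannot set the alpha genes apart.

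**Figure D2:**
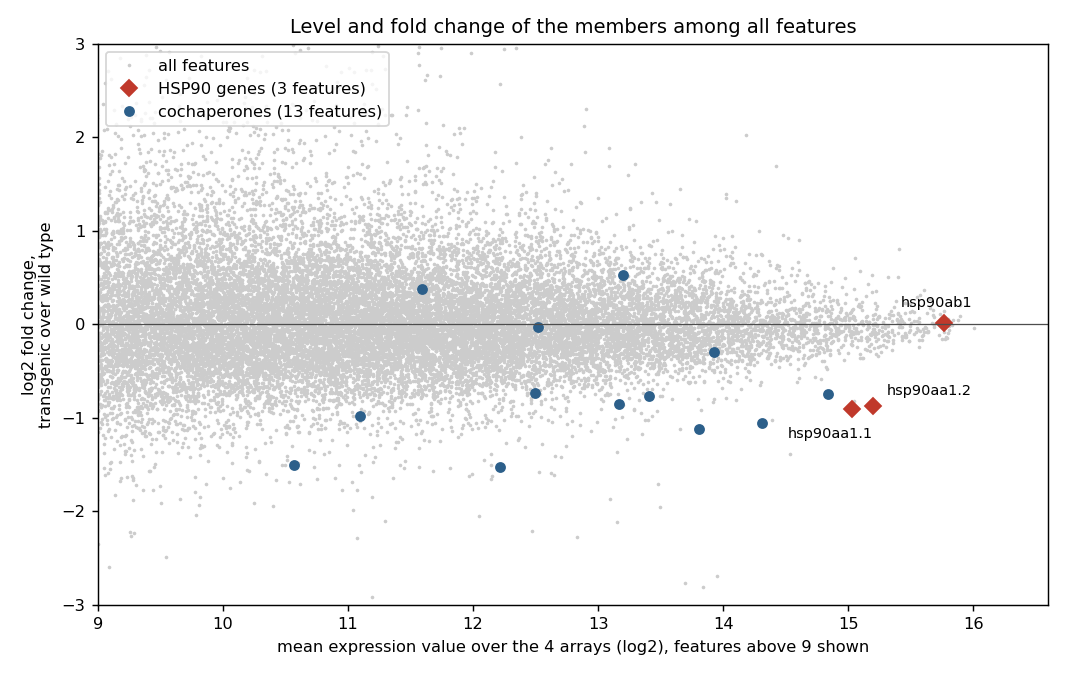
Log2 fold change, transgenic over wild type (vertical axis), against the mean value over the 4 arrays (log2, horizontal axis) for features above 9; grey dots are all features (those beyond the vertical axis are not drawn), red diamonds the 3 HSP90 features and blue circles the 13 cochaperone features. The hsp90aa1 features at -0.90 and -0.87 sit below most grey dots at the bright end, where hsp90ab1 lies at 0.01. A grey dot near them, at -0.82, is the feature with the human ortholog SMARCA5.

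AHSA1, the activator of the HSP90 ATPase, was measured by 3 member features, and both transgenic arrays were lower than both wild-type arrays in each of them. The ahsa1b feature (OTTDART00000025724, ahsa1l in the file) had 12.92 and 13.58 on the transgenic arrays, against 14.29 and 14.44 on the wild-type arrays. It fell by 1.12 ± 0.25 (limma adjusted p = 0.0455), or 2.17-fold, and its transgenic arrays were 0.66 apart, the widest replicate gap of any member. The ahsa1b call ended when any 1 of the 4 arrays was left out (adjusted p = 0.0514 to 0.203). Feature TC251930 had 10.63 and 10.58 on the transgenic arrays, against 11.64 and 11.52 on the wild-type arrays. Its replicates were tight, and it fell by 0.98 ± 0.14 (limma adjusted p = 0.0191). Feature BC055523.1 had 12.93 and 13.11 on the transgenic arrays, against 13.60 and 13.97 on the wild-type arrays, a difference of -0.77 ± 0.19 that did not pass (limma adjusted p = 0.0527). BC055523.1 passed under 8 of 12 alternatives, among them quantile normalization (limma adjusted p = 0.0474), median centring (0.036) and the replicate block (0.0393). Leaving out wild-type replicate 1 was another of the 8, with the spread taken from the transgenic arrays alone. The paralog ahsa1a, which is no member, had 2 features with differences of -0.65 ± 0.17 and -0.31 ± 0.14 (adjusted p = 0.0591 and 0.188), both with the transgenic arrays below the wild-type arrays. The larger of them passed without wild-type replicate 2, in a fit whose spread came from the transgenic arrays alone.

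CHORDC1, a zinc-binding HSP90 cochaperone with CHORD domains, gave the largest differences of the set. The chordc1a feature (NM_001025175) had 9.71 and 9.91 on the transgenic arrays, against 11.17 and 11.46 on the wild-type arrays. It fell by 1.50 ± 0.18 (limma adjusted p = 0.0133), or 2.83-fold. Feature ZV700S00001630, also with the human ortholog CHORDC1, had 11.35 and 11.54 on the transgenic arrays, against 12.87 and 13.08 on the wild-type arrays. It fell by 1.53 ± 0.16 (limma adjusted p = 0.0114), or 2.89-fold, with a gap of 1.33 between the closest arrays of the 2 genotypes. Feature NM_001003457, which the RefSeq table names zgc:92429, had 12.79 and 12.69 on the transgenic arrays, against 13.52 and 13.67 on the wild-type arrays, and fell by 0.85 ± 0.15 (limma adjusted p = 0.0258). A separate feature with the symbol zgc:92429, outside the member rule because it carries that symbol, fell by 0.91 ± 0.18 (limma adjusted p = 0.035). RefSeq lists chordc1a and chordc1b as other genes, and whether zgc:92429 is a true chordc1 copy cannot be told here.

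The remaining CHORDC1 feature went the other way. ZV700S00001655 had 11.89 and 11.68 on the transgenic arrays, against 11.52 and 11.29 on the wild-type arrays, a difference of 0.38 ± 0.17 that did not pass (limma adjusted p = 0.171). Its groups did not overlap. Set against chordc1a within each array, the difference between the 2 fold changes was -1.88, with an exact permutation p of 0.333, the smallest possible.

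STIP1, which bridges HSP70 and HSP90, was measured by 2 features that disagreed. The stip1 feature with a RefSeq accession (NM_001007766) had 14.52 and 14.41 on the transgenic arrays, against 15.13 and 15.29 on the wild-type arrays. It fell by 0.74 ± 0.15 (limma adjusted p = 0.0351), or 1.67-fold. Feature ZV700S00004405 had 12.47 and 12.53 on the transgenic arrays, against 12.46 and 12.60 on the wild-type arrays, and its groups overlapped (-0.03 ± 0.14, limma adjusted p = 0.895; 0.04 without wild-type replicate 2). The difference between the 2 fold changes was -0.71 (exact permutation p = 0.333, the smallest possible).

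CDC37, the kinase-specific cochaperone, was measured by a single member feature, ZV700S00000127. It had 13.72 and 13.85 on the transgenic arrays, against 14.17 and 13.99 on the wild-type arrays. The arrays separated by only 0.14, and the difference of -0.29 ± 0.15 did not pass (limma adjusted p = 0.228). A related feature outside the rule, ZV700S00002803, has CDC37 among several human names. It was very dim, with 3.70 and 3.15 on the transgenic arrays, against 3.05 and 3.10 on the wild-type arrays. Its difference of 0.35 ± 0.22 did not pass (limma adjusted p = 0.314). FKBP4, an immunophilin that docks on HSP90 through a TPR domain, was likewise measured by a single member feature, TC248305. It had 13.67 and 13.89 on the transgenic arrays, against 14.75 and 14.92 on the wild-type arrays. The FKBP4 feature fell by 1.05 ± 0.16 (limma adjusted p = 0.0209), or 2.07-fold.

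PTGES3, the p23 cochaperone that stabilises the closed dimer, had member features of opposite sign. ZV700S00005502 had 12.23 and 12.04 on the transgenic arrays, against 12.85 and 12.88 on the wild-type arrays, and fell by 0.73 ± 0.15 (limma adjusted p = 0.0359). The ptges3b feature NM_001002137 had 13.40 and 13.53 on the transgenic arrays, against 12.85 and 13.01 on the wild-type arrays. Its difference of 0.53 ± 0.15 was the highest of the 16 and did not pass (limma adjusted p = 0.0724). It passed under 5 of 12 alternatives, among them leaving out wild-type replicate 2, where the spread came from the transgenic arrays alone. A further feature of the same gene by name, zgc:86751 (OTTDART00000027994, no member), differed by -0.29 ± 0.14 (limma adjusted p = 0.202), so the 2 features of ptges3b had opposite signs. The difference between their fold changes was 0.82 (exact permutation p = 0.333, the smallest possible). A feature with the older p23 name TEBP, also outside the rule, differed by 0.24 ± 0.14 (limma adjusted p = 0.284). The sign for p23 thus differed between features.

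**Figure D3:**
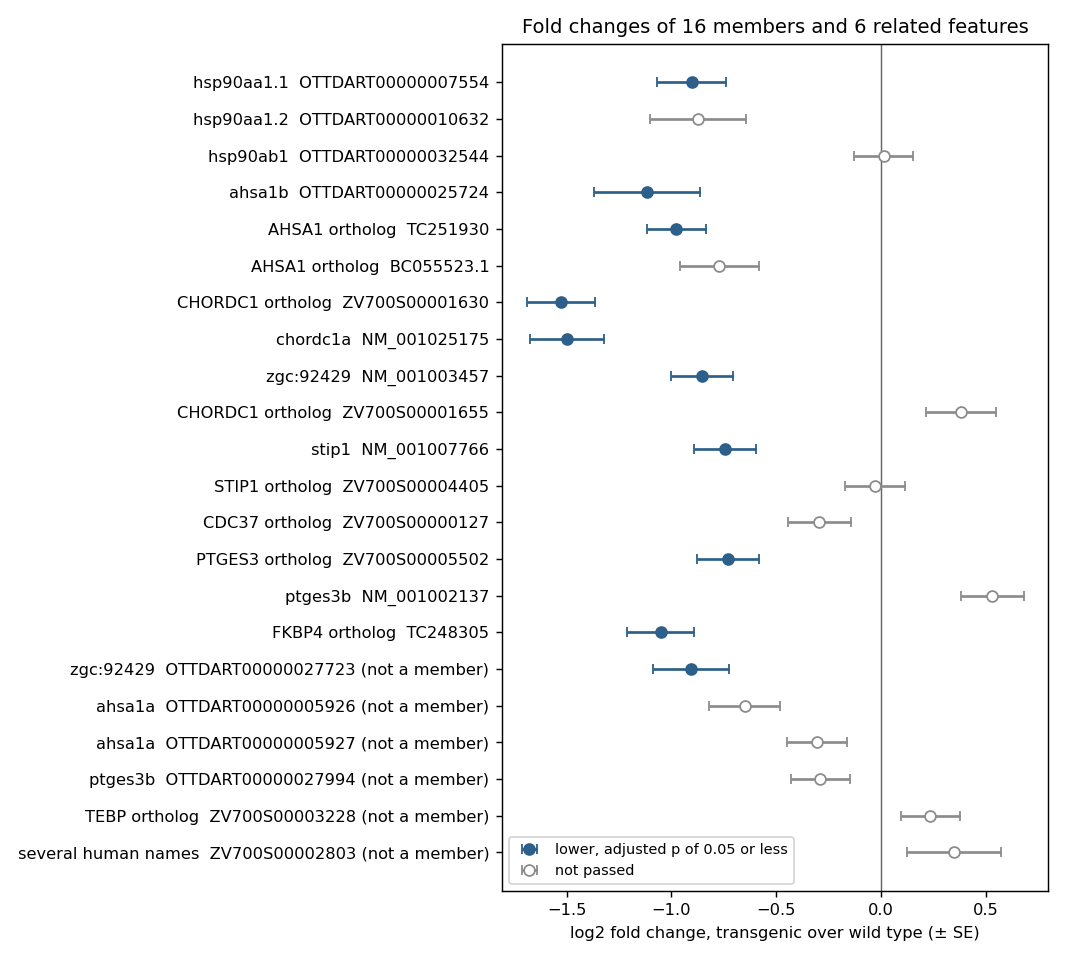
Log2 fold change, transgenic over wild type, with SE (horizontal axis) for the 16 members and, in the lowest 6 rows, for related features outside the rule; filled blue points passed an adjusted p of 0.05 and open grey points did not. Of the 16 members 9 are filled and lie between -1.53 and -0.73, and the CHORDC1, STIP1 and PTGES3 rows each hold features that part from one another.

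The members' replicate gaps were wider than those of all features for the transgenic pools and narrower for the wild-type pools. Replicate 2 was above replicate 1 in 11 of the 16 members for the transgenic pools and in 13 for the wild-type pools. The same count over all features was not made, so this cannot be read as a trait of the members. The median gap between replicate arrays was 0.18 for the transgenic pools and 0.16 for the wild-type pools over the 16 members, against 0.14 and 0.24 over all features. Relative to each feature's own mean, the members' median was -0.42 and -0.33 on the transgenic arrays, against 0.34 and 0.45 on the wild-type arrays, where the same median over all features lay between -0.01 and 0.01. All 16 members had means above the 25th percentile of the values (7.05) in both genotypes. In the authors' deposited table, 14 of the 16 members had a q-value of 0.05 or less, 12 of them downward. So did 25150 of all 37176 features, in either direction. The limma calls needed both transgenic arrays. When either was left out, 0 of 37176 features passed in limma, and 9 to 10 members then passed an unadjusted p of 0.05 beside 20.1% to 20.3% of all features. The members' median log2 fold change stayed between -0.90 and -0.75 when any 1 of the 4 arrays was left out.

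Other genes of the HSP90 system were read beside the members. Of 39 listed genes for cochaperones, HSP90-modifying enzymes and heat shock factors, 24 were measured. By the brightest non-member feature of each, 3 fell, 2 rose and 19 did not pass (limma). Over all features, 7.28% fell and 10.3% rose. The 24 include ptges3b by its zgc:86751 feature (-0.29), since its brighter feature, at 0.53, is a member. At an unadjusted p of 0.05, 8 were lower and 2 higher, against 36.9% of all features in either direction. Both transgenic arrays lay below both wild-type arrays for 14 of the 24, ptges3b by that dimmer feature among them, and above them for 4. Such separations occurred in 33.1% of all features downward and 34.4% upward. The median of the 24 genes was -0.26, and no test of the difference from the members was made. The largest fall was in tomm34, which encodes a TPR cochaperone of mitochondrial protein import. It had 11.64 and 11.63 on the transgenic arrays, against 12.96 and 12.84 on the wild-type arrays (-1.27 ± 0.14, limma adjusted p = 0.0124). The myosin chaperone gene unc45b, an HSP90 partner in muscle, had 12.83 and 12.90 on the transgenic arrays, against 13.79 and 13.99 on the wild-type arrays (-1.02 ± 0.15, limma adjusted p = 0.0199). The gene sugt1, whose product links HSP90 to kinetochore assembly, fell by 0.61 ± 0.14 (limma adjusted p = 0.0456). The sugt1 call was lost when replicate numbers were blocked (adjusted p = 0.0562) and without wild-type replicate 1 (adjusted p = 0.0537).

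Of the 24 genes, the 2 that rose were fkbp5 and the HDAC6 feature, where 10.3% of all features rose. All 24 were listed for their part in the HSP90 system. The immunophilin gene fkbp5 had 9.21 and 9.35 on the transgenic arrays, against 8.25 and 7.62 on the wild-type arrays, and rose by 1.34 ± 0.25 (limma adjusted p = 0.0298). Its sign was opposite to that of the FKBP4 feature, whose product competes with FKBP5 for the same docking site. The difference between these 2 features was not tested. The feature with the human ortholog HDAC6, a deacetylase of HSP90 and tubulin, had 11.31 and 11.43 on the transgenic arrays, against 10.40 and 10.05 on the wild-type arrays (1.15 ± 0.18, limma adjusted p = 0.022). Among genes that did not pass, hsf2, a heat shock factor gene, differed by -0.55 ± 0.14, the muscle methyltransferase gene smyd1b by -0.51 ± 0.15, the ATPase gene ruvbl2 by -0.47 ± 0.16 and the NUDC feature by -0.40 ± 0.14. The hsf2 gene passed without wild-type replicate 2, and ruvbl2 without wild-type replicate 1, in fits whose spread came from the transgenic arrays alone. The brightest of 4 features of hsf1, the gene of the main heat shock factor, differed by 0.23 ± 0.33, and 1 dimmer feature fell (-1.74 ± 0.37, limma adjusted p = 0.0394). A dimmer feature of NUDCD2, a NudC-family gene, also fell (-0.77 ± 0.17, adjusted p = 0.0451), unlike its brightest.

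**Figure D4:**
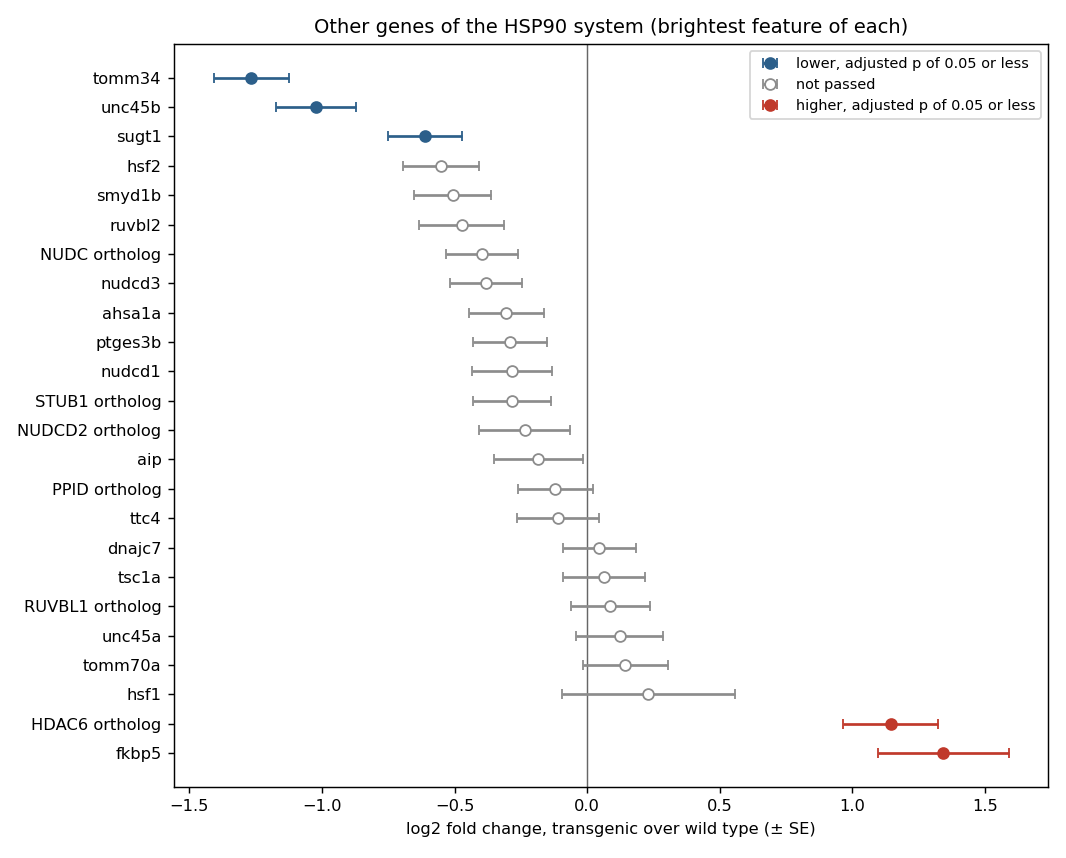
Log2 fold change, transgenic over wild type, with SE (horizontal axis) for 24 listed genes of the HSP90 system, each by its brightest non-member feature. Blue points fell, red points rose and open grey points did not pass an adjusted p of 0.05. The 3 falls lie between -1.27 and -0.61, and the 2 rises at 1.15 and 1.34.

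HSP90 forms of other compartments were set beside the cytosolic ones. The gene hsp90b1 (GRP94), of the endoplasmic reticulum, had 11.88 and 12.45 on the transgenic arrays, against 13.92 and 14.13 on the wild-type arrays. It fell by 1.86 ± 0.23 (limma adjusted p = 0.0153), and its difference from the alpha genes was not tested. A feature with the human ortholog TRAP1, the mitochondrial form, was dim and scattered, with 4.99 and 5.24 on the transgenic arrays and 7.34 and 5.51 on the wild-type arrays (-1.31 ± 0.60, limma adjusted p = 0.187). Without wild-type replicate 2, which left 1 wild-type array, the TRAP1 difference was -2.22. Of 36 genes for known HSP90 clients measured, 0 rose and 2 fell in limma, with a median of 0.07. On the whole array, 10.3% of features rose and 7.28% fell. Of the 36, 10 passed an unadjusted p of 0.05, 6 of them upward, where 36.9% of all features passed. The 2 client genes that fell were ahr1b, an aryl hydrocarbon receptor gene (-0.82 ± 0.17, limma adjusted p = 0.0393), and raf1a, a RAF kinase gene (-0.61 ± 0.14, limma adjusted p = 0.0449). A dimmer feature of the checkpoint kinase gene chek1 fell too (-0.61 ± 0.14, adjusted p = 0.0468), unlike its brightest. The raf1a call was lost when replicate numbers were blocked (adjusted p = 0.0552).

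Other chaperone genes gave a setting for these values. Over all features, 7.28% fell and 10.3% rose in limma, and 36.9% passed an unadjusted p of 0.05 in either direction. Of 20 genes of the HSP70 and DnaJ systems measured, 4 fell and 1 rose, with a median of -0.11. At the unadjusted p, 5 of the 20 were lower and 2 higher. The genes with the smallest p were hsp70.3 (-2.76 ± 0.23) and the HSPBP1 feature (-2.28 ± 0.18). Of 19 other heat shock and chaperonin genes, 5 fell and 0 rose in limma by the brightest feature, with a median of -0.27 and no further gene at an unadjusted p of 0.05. The collagen chaperone genes serpinh1b (-1.09 ± 0.18) and serpinh1a (-0.99 ± 0.15) were among them. Some dimmer features parted from the brightest one of their gene, which did not pass. A dim HSPB1 feature rose by 1.86 ± 0.19 (adjusted p = 0.0112), and a dimmer hspa4l feature fell by 1.07 ± 0.16 (adjusted p = 0.0205). No test of the difference between the HSP90 set and these lists was made.

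Markers of tissues in the embryo were read beside the members. Over all features, 7.28% fell and 10.3% rose in limma, and 36.9% passed an unadjusted p of 0.05. Of 12 skeletal muscle markers, 1 rose (myhz2, 0.94 ± 0.18) and 1 fell (ttnb, -1.60 ± 0.14, 2 of its 6 features passed), and the mean level over the list was 13.85 to 13.89 on the transgenic arrays, against 13.97 to 14.06 on the wild-type arrays. Of 8 neuronal markers 1 rose (syt1a, 0.63 ± 0.14), and the list mean was 11.76 to 11.80 on the transgenic arrays, against 11.51 to 11.54 on the wild-type arrays. The syt1a call ended under quantile normalization, median centring and the replicate block. Of 7 epidermal and 7 erythroid markers, 0 passed in limma by their brightest feature, and 1 of each, krt5 (-0.36 ± 0.14) and alas2 (-0.50 ± 0.14), passed an unadjusted p of 0.05. Of 3 germ cell markers, piwil1 (-2.02 ± 0.23) and dnd1 (-1.24 ± 0.15) fell, and the list mean was 6.46 to 6.72 on the transgenic arrays, against 7.78 to 7.98 on the wild-type arrays. Dimmer features of some markers fell although the brightest did not pass: krt5 (-0.58 ± 0.14, adjusted p = 0.0496), cyt1 (-1.18 ± 0.26, adjusted p = 0.0422), gad1b (-1.24 ± 0.14, adjusted p = 0.0122) and ttna (-1.32 ± 0.15, adjusted p = 0.0129). The part of tissue makeup in the HSP90 differences was not tested.

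The genes nearest in pattern to the mean profile of hsp90aa1.1, hsp90aa1.2, hsp90ab1 and chordc1a, by Euclidean distance over the 4 mean-centred log2 values, were xrcc5 (distance 0.0205), pgghg (0.0339) and ahr1b (0.0366). Their fold changes were -0.81, -0.81 and -0.82. The mean profile averages fold changes from -1.50 (chordc1a) to 0.01 (hsp90ab1), and so is not the pattern of either of these. Over 4 arrays this is a description of likeness in these arrays alone.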

How the data were processed

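The authors deposited log2 expression values for 37176 features on 4 NimbleGen-labelled arrays; the log base was inferred from the range, which ends at 16.04. Per the file headers, each feature also carries the authors' q-value and log2 fold change, which matches the difference of genotype means to within 2.8e-08. For normalization and the computation of q-values, the method is not given in any source used here. Detection calls, slides and scan dates were not used here, so no batch could be tested.

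Zebrafish names were updated through a RefSeq table of assembly GRCz12tu, used for names and neighbours only. 2663 features were named by accession, 4470 by current symbol, 5744 by synonym, 1978 by gene number and 6423 as in the file, and 15898 had none. Fold changes (transgenic minus wild type) came from lmFit and eBayes in limma 3.58.1 (R 4.3.3) on the deposited values, with 2 residual and 2.92 prior degrees of freedom, two-sided, with Benjamini-Hochberg adjustment across the whole array. The code was tested on simulated data. A listed gene was read by its brightest feature outside the member set. Named were all members, of the partner list those past the threshold and 4 more, and 2 of each other list, beside the hsp90b1 and TRAP1 features and the 3 nearest patterns; hsf1, the 6 related features, SMARCA5 and listed genes whose dimmer features got another call were added after values were seen. Members and lists were chosen with earlier results of these data known. Labels do not say that the pools come from separate clutches, so p-values measure the spread between these arrays, which were too few for precise estimates. Array medians were 9.61 to 9.62 for transgenic and 9.5 to 9.55 for wild-type arrays, and Pearson's r across features was 0.996 between transgenic arrays, 0.988 between wild-type arrays and 0.966 to 0.973 between genotypes. The planned search of promoters and proteins was not run, and no sequence is shown.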

Additional observations from a re-analysis of the deposited data

How the results depend on the processing

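The members' median log2 fold change stayed between -0.91 and -0.74 under 14 alternatives, within the spread between arrays. Counts moved more. Leaving out an array gave 0 to 9 members past the threshold, 0 to 9 lower and 0 to 1 higher, and 0 to 7 partner genes, 0 to 4 lower and 0 to 3 higher; the 0 counts came without transgenic replicate 1 or 2, where limma passed 0 of 37176 features and the lowest adjusted p of a member was 0.103 or 0.0765. In each fit without an array, the lone array was assumed to vary like the pair of the other genotype. Without a wild-type array, more of all features passed than in the main fit, so the upper counts stand beside a larger share of calls. Over all features the median replicate gap was 0.24 for the wild-type pair and 0.14 for the transgenic pair. The cause of these shifts in counts was not tested. The authors' deposited q-values gave 14 members, 2 of them higher, and 18 partner genes, 15 of them lower. By those q-values, 25150 of all 37176 features passed. Higher members numbered 1 with features above the 25th percentile or above the median, with an eBayes trend, with log2(value + 50) and at an adjusted p of 0.10; in each it was the ptges3b feature NM_001002137. Lower partner genes numbered 5 above the 25th percentile, with log2(value + 50) and at an adjusted p of 0.10, 6 above the median (with 1 higher), and 7 of 9 with the trend. Of all features tested, 7.28% fell in the main fit, 11.7% above the 25th percentile, 8.59% with log2(value + 50) and 13.6% at 0.10. That share was 13.2% above the median and 10.7% with the trend. The hsp90aa1.2 call was made under median centring (adjusted p = 0.0473), both filters (0.0351 and 0.0216) and the trend (0.0138). The hsp90ab1 difference turned to -0.079 with median centring and ranged from -0.034 to 0.061 when an array was left out, and that of ZV700S00004405 ranged from -0.10 to 0.039. Over all features, 3830 rose and 2708 fell, but 3316 rose and 3630 fell with median centring. Same-numbered arrays deviated together (r = 0.206 across features), which 2 pairs cannot settle; with the replicate number as a block, 10 members passed. Counting the 6 related features too, added after seeing the data, gave 10 lower.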
